A study of Mus musculus with 12 samples.

Results

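Stat3 ChIP-seq summits were compared after a cytokine and after an oxidant in mouse embryonic fibroblasts (MEFs). The lists used were those of -/-WT cells treated with LIF or with hydrogen peroxide. The members were every summit of both lists, 1088 for LIF and 450 for peroxide, or 1538 of the 2136 summits in the 5 lists of the series. The -/-WT MEFs are immortalised cells from which floxed Stat3 was deleted with Cre and in which wild-type Stat3 was expressed again from a retroviral vector, as polyclonal lines sorted for the vector's markers. Both groups therefore carry the same deletion and the same vector, and differ in the stimulus: LIF at 10 ng/ml for 45 min, or peroxide for 1 h. The labels give the peroxide dose as 100 mM, whereas the study's methods give it in µM. The cells had been starved of serum overnight before either stimulus. The other lists were of unstimulated -/-WT cells (230 summits) and of -/-C3S cells, which express a Stat3 mutant described as insensitive to redox, unstimulated (145) or treated with peroxide (223).

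Each list was made by the authors from 2 replicates together, so that no value below has a replicate error. Intervals are 95% and cover counting error only. The lists hold no read depth, and the study describes more unique reads per library for LIF than for the other samples, so that stimulus, exposure time and depth cannot be told apart. The scores of the summits, whose unit is not given in the sources used here, ranked summits within a list and were not compared between lists. They ran from 1.45 to 144 for LIF and from 2.40 to 113 for peroxide. The lists hold no expression, and the fibroblast label was not checked against markers here. The study proposes that peaks of unstimulated cells more likely reflect background, and describes peaks after peroxide as nearly the same as theirs. By its account, peroxide did not appear to induce Stat3 association with chromatin. Whether a summit marks bound Stat3 was not tested here.

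Stat3 is a latent transcription factor that cytokines of the IL-6 family, LIF among them, activate through receptors that share the gp130 chain and through Jak kinases. Phosphorylated dimers then bind palindromic sites known as GAS elements, of which the Stat3 inducible element (SIE) is the high-affinity form, and induce genes that include Stat3 itself and the feedback inhibitor Socs3. Peroxide oxidises cysteines of Stat3, among other proteins, and is a signal as well as a stress in fibroblasts.

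Sequences at or near the summits are shown by examples from each list, from GRCm38 (the coordinates of mm10). For LIF these are the 5 highest-ranking summits with a whole consensus SIE (TTCCNGGAA, in capitals) among the 61 bases around the summit and outside annotated UTRs, each given on the plus strand. Junb encodes an AP-1 subunit, Ell a transcription elongation factor, Ppm1h a phosphatase and Plec the cytolinker plectin. The summits at Junb, Ppm1h and Plec lay in promoters, that at Ell in an intron, and the fourth was intergenic with a pseudogene as the nearest gene. Genes that appear only with these sequences were chosen for them by rank.
Junb, LIF rank 5, chr8:84976523-84976583: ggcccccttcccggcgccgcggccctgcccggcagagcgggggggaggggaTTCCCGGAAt
Ell, LIF rank 6, chr8:70564898-70564958: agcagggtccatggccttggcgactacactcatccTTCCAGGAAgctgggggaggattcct
Ppm1h, LIF rank 28, chr10:122894744-122894804: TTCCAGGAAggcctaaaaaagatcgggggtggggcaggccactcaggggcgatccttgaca
Gm45245, LIF rank 33, chr8:46429966-46430026: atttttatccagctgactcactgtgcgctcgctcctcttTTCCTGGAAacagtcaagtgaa
Plec, LIF rank 34, chr15:76196804-76196864: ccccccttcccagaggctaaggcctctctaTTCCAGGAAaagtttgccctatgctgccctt

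After peroxide, summits on different chromosomes lay in copies of 1 sequence. The examples are 5 of the 32 summits within 100 bp of 1 stretch (bases 6024 to 6084) of a repeat described in the next paragraph, taken by rank with 1 for each chromosome. The stretch was chosen after the positions of the summits were seen. The lines give the bases of that stretch, which need not hold the summit itself, on the strand of the repeat. Capitals mark the bases that differ from its reference copy. The gene named is that with the nearest annotated start site.
Zkscan2, peroxide rank 7, chr7:123626675-123626735, plus strand: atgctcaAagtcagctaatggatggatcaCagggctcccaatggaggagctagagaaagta
Gm37901, peroxide rank 13, chr3:72615478-72615538, plus strand: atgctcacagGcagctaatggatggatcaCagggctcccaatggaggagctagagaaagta
Lcn4, peroxide rank 15, chr2:26677593-26677653, plus strand: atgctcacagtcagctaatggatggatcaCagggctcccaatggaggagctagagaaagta
Gm6931, peroxide rank 84, chr16:49552075-49552135, minus strand: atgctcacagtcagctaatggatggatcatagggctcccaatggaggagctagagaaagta
Zfp458, peroxide rank 85, chr13:67277526-67277586, plus strand: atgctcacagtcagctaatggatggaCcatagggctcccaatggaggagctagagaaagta

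Of the 450 peroxide summits, 421 (93.6%, interval 90.9 to 95.6%) lay in sequence that matched a single repeat of 6317 bases, at 90% identity or more over at least 150 of the bases within 150 bp of the summit. No LIF summit did so (0 of 1088, which allows a share of up to 0.276%, as 3 counts of the total, or 0.338% by the exact interval). The difference, LIF minus peroxide, was -93.6 percentage points (Newcombe interval -95.5 to -90.9). Of windows tiled across the genome, 284 of 5295 (5.36%) matched. The reference copy, chr14:36539519-36545835 on the minus strand, was the most intact near the 60 highest-ranking peroxide summits and holds the peroxide summit of rank 12. It was chosen after the data were examined and from the peroxide list, so that matches and identities to it are a description of that list. It carries open reading frames of 371 and 1281 codons in a row on 1 strand. Such a layout is that of LINE-1 retrotransposons, which are abundant in the mouse genome, but no repeat annotation was used here and the repeat is not named from it. The 421 summits fell on all 21 chromosomes, with a median identity of 97.7% to the reference copy (90.7 to 100%), and the matching genome windows had a median of 94.4%. A copy taken from near peroxide summits favours the former in this comparison.

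The peroxide summits were spread along the repeat. Of the 421, 310 (73.6%, interval 69.1 to 77.8%) lay in the longer reading frame, 62 (14.7%) downstream of it, 36 (8.55%) in the shorter frame and 13 (3.09%) upstream of it. Among the matching genome windows, 64.8% (58.9 to 70.3%) lay in the longer frame, 8.85 percentage points fewer than among the peroxide summits (Newcombe interval 1.93 to 15.8). The shorter frame held 13.4% of the genome windows, and the difference, peroxide minus genome, was -4.83 points (-9.84 to -0.199). The copy, and with it the frames and ends, came from the peroxide list. These differences in position are therefore a description as well. No consensus SIE was present in the reference copy, which held 5 GAS elements (TTCNNNGAA) and 1 AP-1 site.

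**Figure D1:**
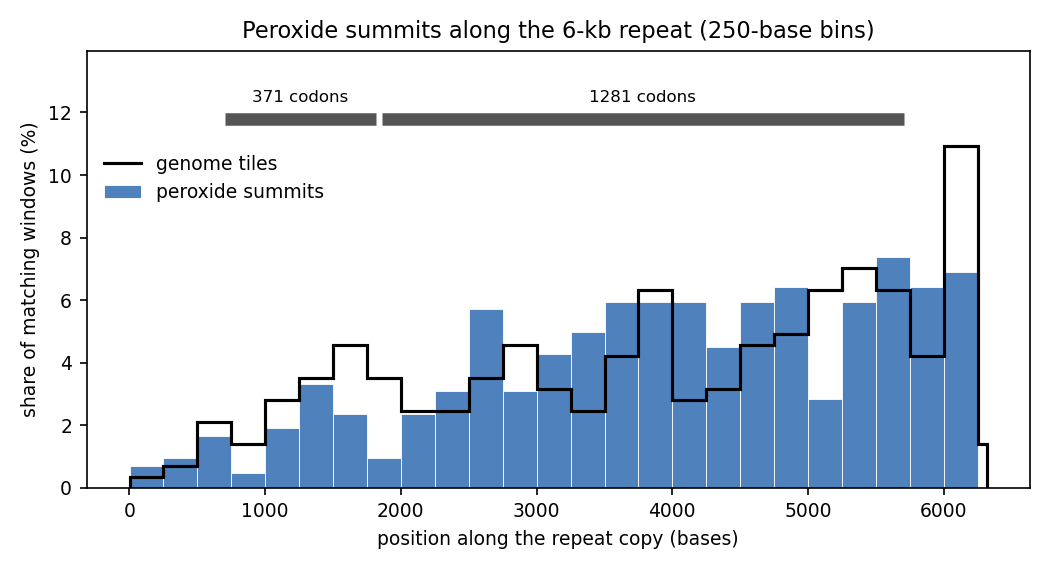
Share of matching windows (y axis, %) in 250-base bins along the repeat copy (x axis, bases), for the 421 peroxide summits (blue bars) and the 284 matching genome tiles (black line); grey bars mark the reading frames of 371 and 1281 codons. Peroxide summits run from base 139 to base 6183 of the copy, and 310 of the 421 lie in the longer frame.

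The same repeat filled the other lists without LIF. In the list of unstimulated -/-WT cells, 210 of 230 summits (91.3%, interval 86.9 to 94.6%) matched it, as did 122 of 145 (84.1%) and 207 of 223 (92.8%) in the -/-C3S lists, unstimulated and with peroxide. Of the peroxide summits, 107 (23.8%) had a summit of the unstimulated -/-WT list within 200 bp. Among the 343 that had none, 324 matched the repeat. The difference in this share, LIF minus peroxide, was -94.5 percentage points (-96.4 to -91.5), near that of the whole list. A locus absent from the unstimulated list was not called there and need not be new after peroxide. The study describes peaks that were called only after peroxide in -/-WT cells as visible in unstimulated controls too.

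The 29 peroxide summits that did not match the repeat held the few in sequence of another kind. Of these, 24 still lay in windows of 161 bases (80 bp either side of the summit) that were wholly marked as repeats in the reference, and 22 had a sequence found once in the genome. Only 5 windows of the whole list were not fully masked, nearest to Stat3 (13.0% of bases masked), the pseudogenes Cyp2c53-ps (94.4%) and Gm18342 (0%), Ifit1bl1 (31.7%), a member of the interferon-induced Ifit gene family, and the non-coding Gm29904 (31.7%). The last 3 ranked 414, 436 and 448 of 450. Of these 5 genes, all but Stat3 were named after their values were seen. One peroxide summit among the 29 lay in a promoter, that of Stat3.

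Fully masked windows were nearly absent after LIF. They were 4 of 1088 (0.368%, interval 0.100 to 0.939%) for LIF and 445 of 450 (98.9%, 97.4 to 99.6%) for peroxide, against 13.5% of 264732 windows tiled over the genome. The difference was -98.5 percentage points (-99.2 to -96.9). Within promoters alone, 0 of 421 LIF summits and 25 of 26 peroxide summits were fully masked. Windows with no masked base were 569 (52.3%) for LIF and 1 for peroxide, against 25.6% of the genome.

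The 75 bases centred on the summit, the length of 1 read of the pairs sequenced, occurred once in the genome for 1082 of 1088 LIF summits (99.4%, interval 98.8 to 99.8%) and for 191 of 450 peroxide summits (42.4%, 37.8 to 47.2%). The difference was 57.0 percentage points (52.3 to 61.5), and the genome windows stood between the lists at 89.2%. At the peroxide summits, 171 sequences had 2 to 5 exact copies, 48 had 6 to 99 and 40 had 100 or more, with 9069 as the highest number. The summit of peroxide rank 5, nearest to the pseudogene Mug-ps1, was of the last kind, with 6265 copies. With 150 bases, 84% of peroxide summits were single-copy and the difference was 16 points (12.9 to 19.7), and with 31 bases it was 89.2 points (86.1 to 91.7). How reads that map to several positions were handled is not given in the sources used here, and its part in the peroxide list was not tested.

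By location, LIF summits were gathered at promoters and peroxide summits were mostly intergenic. Promoters followed the study's definition, from 5 kb before to 0.5 kb after a start site, here of every annotated gene. The study reports a lower promoter share for LIF peaks, and a higher intergenic share after peroxide, than those given below. The reason was not tested. Promoters held 421 LIF summits (38.7%) and 26 peroxide summits (5.78%), a difference of 32.9 percentage points (29.1 to 36.4). Intergenic sequence held 304 (27.9%) and 314 (69.8%), a difference of -41.8 points (-46.7 to -36.7). It was -23.8 points (-40.9 to -6.27) against the 29 peroxide summits that did not match the repeat at 90% identity. Of the genome windows, 14.7% were in promoters and 48.0% intergenic, so that the lists lay on opposite sides of the genome in both classes. Introns held 344 LIF summits (31.6%, interval 28.9 to 34.5%) and 108 peroxide summits (24%, 20.1 to 28.2%), 7.62 points apart (2.67 to 12.3). The genome's 34.4% lay inside the LIF interval and above the peroxide interval. Exons outside promoters held 19 and 2 summits, and the interval of that difference included 0 (1.3 points, -0.0173 to 2.32).

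**Figure D2:**
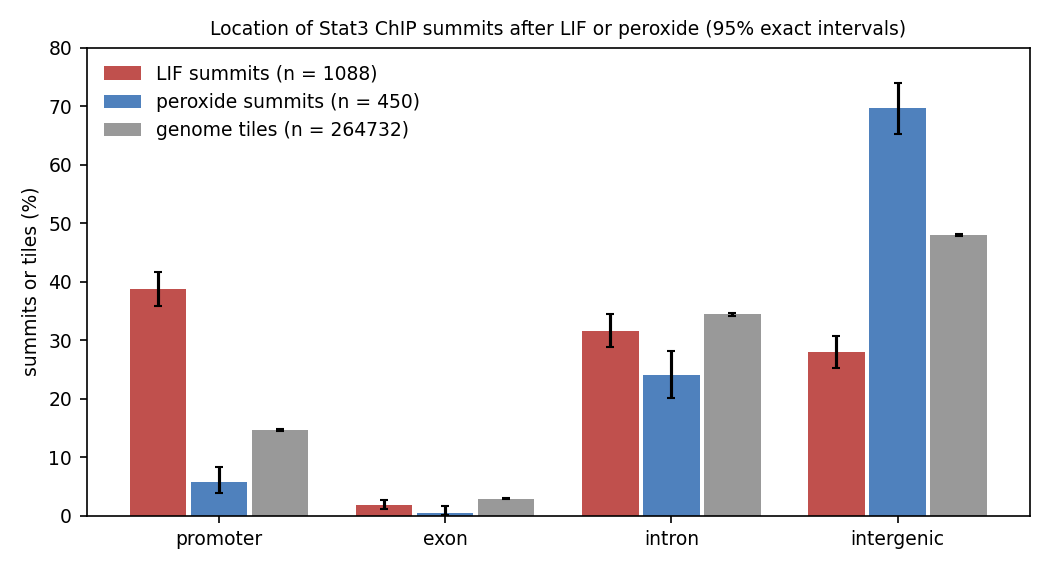
Share (y axis, %) of LIF summits (red), peroxide summits (blue) and tiled genome windows (grey) in each location class (x axis), with exact 95% intervals as error bars. LIF is above the genome in promoters (38.7 against 14.7%), and peroxide is above it in intergenic sequence (69.8 against 48.0%).

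The median distance to the nearest start site was 5.86 kb for LIF (quartiles 0.675 and 21.3 kb), 27.6 kb for peroxide (11.2 and 62.3 kb) and 16.4 kb for the genome windows. Within 5 kb of a start site lay 509 LIF summits (46.8%) and 45 peroxide summits (10%), a difference of 36.8 percentage points (32.5 to 40.6). Close to start sites, 122 LIF summits (11.2%) and 0 peroxide summits lay within 0.1 kb, where the genome had 0.778% of its windows. The count of 0 allows a peroxide share of up to 0.667% by 3 counts of the total, and up to 0.816% by the exact interval, which includes the genome's share. Within 1 kb, LIF summits were more often upstream (212, 19.5%) than downstream (102, 9.38%) of the start site, and the genome windows were evenly divided, at 2.95 and 3.08%. Beyond 100 kb were 24 LIF summits (2.21%) and 65 peroxide summits (14.4%). Measured to protein-coding genes only, the medians were 13.7 kb and 144 kb.

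**Figure D3:**
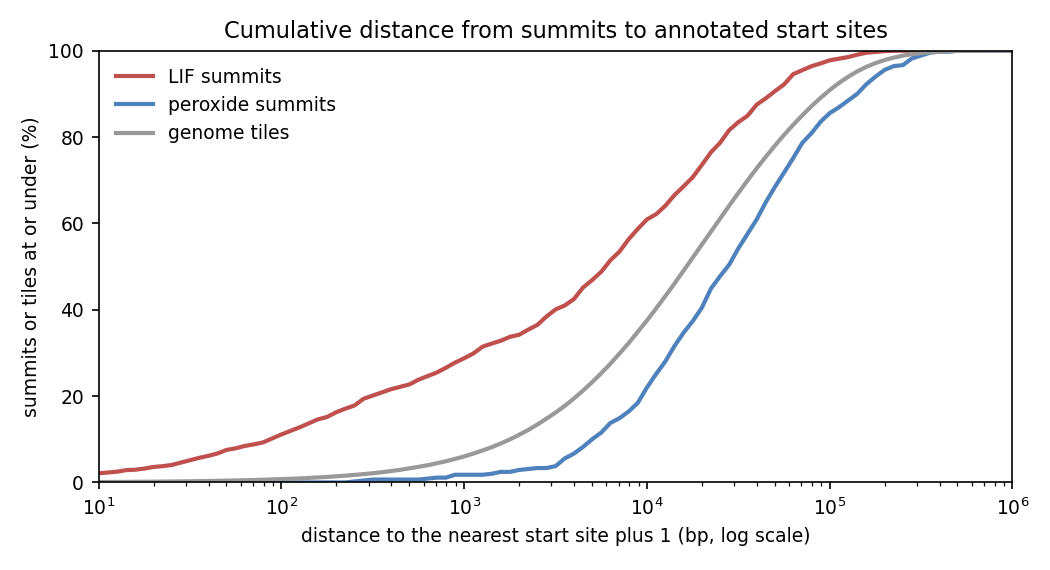
Cumulative share (y axis, %) of LIF summits (red), peroxide summits (blue) and tiled genome windows (grey) by distance to the nearest annotated start site plus 1 (x axis, bp, log scale). The LIF curve runs above the genome's and the peroxide curve below it, with medians of 5.86, 16.4 and 27.6 kb.

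Nearest genes differed in kind as well. The nearest start site belonged to a protein-coding gene for 632 LIF summits (58.1%, interval 55.1 to 61.0%) and for 115 peroxide summits (25.6%, 21.6 to 29.8%), with the genome windows at 40.8%. Pseudogenes of any type were nearest to 98 LIF summits (9.01%) and 173 peroxide summits (38.4%), against 26.5% in the genome. Long intergenic non-coding RNA genes were nearest to 14% of LIF summits (12 to 16.2%) and 11.8% of peroxide summits (8.95 to 15.1%), intervals that overlap.

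The 12 highest-ranking LIF summits were nearest to Stat3, Osmr (the oncostatin M receptor), the non-coding Rn7sk, the transcriptional regulator Sbno2, Junb, Ell, Csf1 (a macrophage growth factor), Gm6133, Gm14321, Gm12801, the TNF receptor gene Tnfrsf1a and the regulator Arid5b. Of these, 8 summits lay in promoters, those at Stat3, Osmr, Rn7sk, Sbno2, Junb, Csf1, Tnfrsf1a and Arid5b. Rn7sk was the only one of the 12 whose central 75 bases had copies elsewhere (3 in all). Consensus SIEs were present at Junb, Ell and Gm14321. Summits were repeated at some of these genes. Sbno2 and Arid5b each were nearest to 5 LIF summits and Osmr to 4. The kinase gene Map4k3, named after its values were seen, had 6, between 18.2 and 67.3 kb from its start sites, and Socs3 had 5, at 0.0620 to 19.7 kb.

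The 12 highest-ranking peroxide summits were nearest to Gm28905, Gm17889, Rab28 (a small GTPase), Gm27034, Mug-ps1, Gm2021, Zkscan2 (a zinc finger gene), Gm7931, Gm47756, the T-cell receptor segment Trav3-1, AC103363.1 and Gm24394. All 12 summits matched the repeat, at 96.3 to 100% identity. One of the 12 lay in a promoter, at -4.56 kb from Gm47756 (negative distances are upstream), and the summit nearest to Zkscan2 was at -126 kb. Nearly every peroxide gene had a single summit: 13 of 437 nearest genes had more, and none had over 2, whereas 109 of 953 LIF genes had 2 or more.

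The 10 highest-ranking peroxide summits in promoters were nearest to Gm47756, Gm47517, Gm48715, Gm23902, Glrx2, Zfp458, Anapc10, Gm43903, Fmn2 and Gm47102. The summit nearest to Zfp458 was 0.867 kb downstream of that start site and so lay in the promoter of another one. Among them are genes of known function: Glrx2, a mitochondrial glutaredoxin of the thiol redox system, Anapc10, a subunit of the ubiquitin ligase that drives mitotic exit, and Fmn2, an actin nucleator. The summit at Glrx2 lay at -4.61 kb from the start site with rank 82, that at Anapc10 at -3.18 kb with rank 88, and that at Fmn2 at -3.49 kb with rank 121. All 3 windows matched the repeat, with identities of 95.7, 97.7 and 99%. The central 75 bases had 2 exact copies in the genome at Glrx2, 10 at Anapc10 and 1 at Fmn2. Where a sequence has several copies, the place of its summit is uncertain. Of the 26 promoter summits, 25 matched it, and the exception was Stat3.

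Only 2 loci were shared, with LIF and peroxide summits within 200 bp of each other, or 0.184% of the LIF list and 0.444% of the peroxide list. The third nearest pair was 3441 bp apart, in an intron at 5830415G21Rik. Within 100 kb of a peroxide summit were 20 LIF summits (1.84%). Both shared loci are on chromosome 11, and their sequences are given on the strand of the gene, with capitals running from one summit to the other.
Stat3, chr11:100939731-100939851, minus strand: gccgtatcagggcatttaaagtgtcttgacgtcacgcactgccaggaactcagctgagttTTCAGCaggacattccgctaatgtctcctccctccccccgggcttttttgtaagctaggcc
Camk2b, chr11:6006367-6006487, minus strand: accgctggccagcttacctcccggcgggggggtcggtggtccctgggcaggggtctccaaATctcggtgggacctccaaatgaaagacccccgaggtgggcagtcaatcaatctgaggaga

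At the Stat3 promoter the summits were 5 bp apart. The LIF summit, at 100939791, was at -251 bp from the start site and ranked 1, with a score of 144. The peroxide summit, at 100939786, was at -246 bp and ranked 203, with a score of 12.3. The unstimulated -/-WT list also had a summit here, 33 bp from that of LIF, and neither -/-C3S list had one within 10 kb. The study describes basal binding at promoters of known targets, Stat3 and Junb among them, as decreased after peroxide. The sequence is found once in the genome and holds the letters GCGTG, the core of a hypoxia response element. Within 80 bp of the summit there was no exact match to the SIE or GAS letters. It was the 1 promoter among the shared loci.

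At Camk2b, which encodes a subunit of calcium/calmodulin-dependent kinase II, the summits were 1 bp apart in an intron, at -5.98 kb from the nearest start site of the gene. They ranked 724 for LIF and 410 for peroxide. Both -/-C3S lists had a summit within 6 bp, and the unstimulated -/-WT list had none within 10 kb. All bases of the window were masked. The central 75 bases occurred once in the genome and the central 31 bases 15 times. It did not match the 6-kb repeat.

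The unstimulated -/-WT list had a summit within 200 bp of 3 LIF summits, those at Stat3, Osmr and Junb, which ranked 1, 2 and 5. Osmr and Junb had no peroxide summit within 200 bp, the nearest being 3063922 and 369425 bp away. One more LIF summit, of rank 585 near Gm10060 (named after its values were seen), was 124 bp from a summit of the -/-C3S peroxide list.

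Genes nearest to a summit in both lists numbered 9, or 0.944% of 953 LIF genes and 2.06% of 437 peroxide genes. They were Stat3, Camk2b, the Hippo pathway kinase gene Stk3, 5830415G21Rik, Rab28, Gm48215, Gm37461, Pappa2 and Gm49198. The summits of the gene were 3441 bp apart at 5830415G21Rik. At Rab28 the closer LIF summit was at -144 bp from the start site (rank 570), and the peroxide summit was 35.0 kb downstream (rank 3). At Stk3 they were at -5.88 kb for LIF and 9.84 kb downstream for peroxide. At Pappa2, which encodes a protease of IGF-binding proteins, they were at -2.23 and -45.6 kb.

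A summit within 10 kb of a start site was found for 982 of 55413 annotated genes after LIF (1.77%) and for 127 after peroxide (0.229%). Among protein-coding genes the shares were 2.69% and 0.205%. Against these, 43 of 173 genes in 8 lists of pathways (24.9%) had a LIF summit and 1 (0.578%) had a peroxide summit, which was Stat3. A summit counts for every gene within reach, so that neighbouring genes can share 1 summit. The lists were chosen with earlier results of these data known, and 1 of them holds regulators known as Stat3 targets. The LIF share beside that of all genes is thus a description and not a test.

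LIF summits were found at receptors, kinases, Stat genes and inhibitors of the Jak-Stat pathway. Of 16 IL-6 family cytokines, receptors and Jak kinases, 4 had one: Osmr (rank 2), Il6st, which encodes gp130 (rank 128), Jak3 (rank 206) and Jak2 (rank 589), each between -501 and -54 bp from a start site. The genes of the cytokines had none. Of 23 Stat genes and feedback inhibitors, 12 had one, among them Stat3, Socs3 (rank 47) and Cish, an inhibitor of Stat5 signalling (rank 170). The summit of Cish lay 38 bp downstream of the start site with a consensus SIE. Among the genes of both lists, Stat3 alone had a peroxide summit.

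Genes of transcription factors had LIF summits as well. Of 20 regulators known as Stat3 targets, 10 had a LIF summit, with Sbno2 (rank 4), Bcl3 (rank 18), Cebpd (rank 121), Ier3 (rank 135) and Irf1 (rank 205) as the highest. Bcl3 encodes a nuclear IκB protein, Cebpd a C/EBP factor of the acute phase, Ier3 an immediate early protein and Irf1 an interferon regulatory factor. Of 17 AP-1 genes, 3 had one: Junb (rank 5), Fosl2 (rank 138) and Maff (rank 582). None of the genes of these lists had a peroxide summit.

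Of 32 antioxidant genes and Nrf2 targets, 6 (18.8%) had a LIF summit and 0 a peroxide summit. In order of rank they were Prdx2, whose summit is that of Junb 5.10 kb away, the metallothionein genes Mt1 and Mt2 with 1 summit (rank 226), Gclm (rank 523), Gsr (rank 593) and Sod2 (rank 1011, sixth by rank and so outside the rule for naming genes). Gclm, the modifier subunit of the enzyme that limits glutathione synthesis, had its summit 18 bp from a start site with a consensus SIE, and at Sod2, the mitochondrial superoxide dismutase, it was 29 bp away. Of 24 genes of the Hif-1 pathway, 1 (4.17%) had a LIF summit, Ldha (lactate dehydrogenase, rank 391), and 0 a peroxide summit. Of all protein-coding genes, 2.69% had a LIF summit, and a count of 1 is too small to set this list apart. With 0.205% of protein-coding genes near a peroxide summit, a count of 0 in lists of this size carries little information.

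Among other groups, 6 of 24 fibroblast genes had a LIF summit, and the highest were Csf1 (rank 7), Lox (a collagen cross-linking enzyme, rank 188), the chemokine genes Cxcl1 (rank 197) and Ccl2 and Ccl7 with 1 summit (rank 532). Of 17 genes of survival and cell cycle, 1 (5.88%, beside 2.69% of all protein-coding genes) had one, the kinase gene Pim3 (rank 36). Neither group had a peroxide summit. Genes of olfactory and vomeronasal receptors, which are silent in most tissues, showed the opposite order. Of 1968, pseudogenes among them, 11 (0.559%) had a peroxide summit and 1 (0.0508%) a LIF summit. The shares of all annotated genes were 0.229% for peroxide and 1.77% for LIF. Some of the 11 genes share a summit. The 5 highest were Olfr1313 and Olfr1314 with 1 summit (rank 57), Olfr126 (rank 239), Olfr320 (rank 284) and Olfr298 (rank 313). The LIF summit was at Vmn2r-ps18 (rank 834).

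Motif matches were counted on either strand, in the 80 bp to each side of a summit. Only exact letters counted, without mismatches. The study's own motif search around LIF peaks reported many more SIE sites than the exact counts given here. A consensus SIE was present at 166 LIF summits (15.3%) and at 0 of 450 peroxide summits, which allows a share of up to 0.667% by 3 counts of the total or 0.816% by the exact interval, and 0.402% of genome windows had one. The difference was 15.3 percentage points (13.1 to 17.5). Within 150 bp of the summit, 187 LIF and 2 peroxide summits had one. The looser GAS element was present at 443 LIF summits (40.7%, interval 37.8 to 43.7%) and at 48 peroxide summits (10.7%, 7.97 to 13.9%), and 6.00% of genome windows had one. Every SIE is also a GAS element. Of the 48 peroxide summits with a GAS element, 46 lay in the 6-kb repeat. GAS elements were near the summit after LIF, a median of 20 bp away, with 214 of 443 under 20 bp. After peroxide they were a median of 37 bp away, with 13 of 48 under 20 bp.

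**Figure D4:**
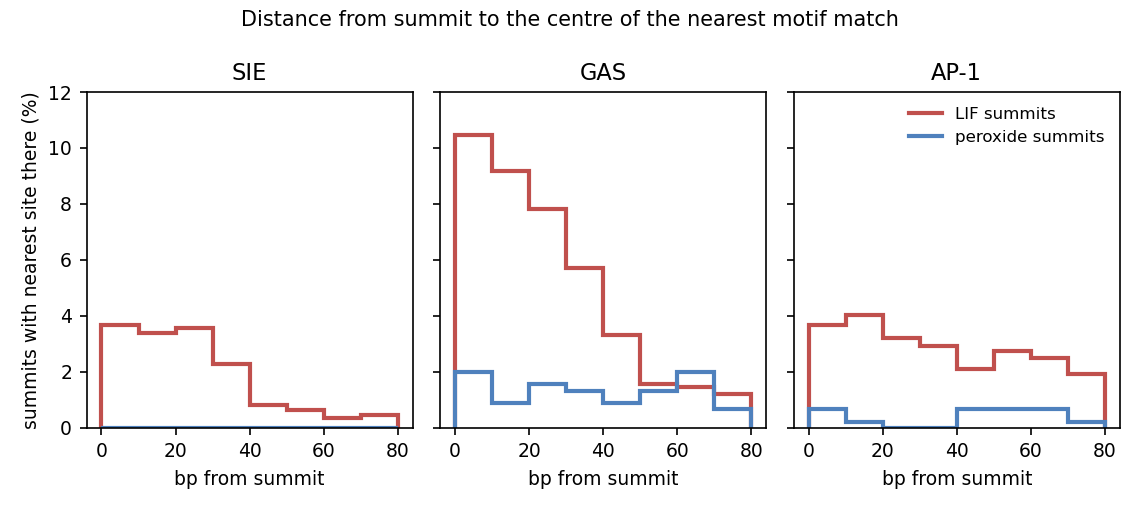
Share of summits (y axis, %) whose nearest SIE, GAS element or AP-1 site (TGANTCA) has its centre at the given distance from the summit (x axis, 10-bp bins), for LIF (red) and peroxide (blue). GAS elements are most frequent next to LIF summits and fall with distance, and peroxide has no SIE within the 80 bp drawn.

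AP-1 sites (TGANTCA) were present at 252 LIF summits (23.2%) and 14 peroxide summits (3.11%), 20.1 percentage points apart (16.9 to 22.9), with the genome windows at 4.84%. An SIE and an AP-1 site were both present at 30 LIF summits (2.76%). At 485 LIF summits (44.6%) neither a GAS element nor an AP-1 site was found as exact letters, and at 389 peroxide summits (86.4%). Such windows can still hold sites with mismatches, which were not counted. Letters of other elements were also more frequent after LIF. The core of the antioxidant response element (TGACNNNGC) was at 81 LIF summits (7.44%) and 0 peroxide summits, with the genome windows at 4.14%. The hypoxia response core ACGTG was at 110 and 7 summits (10.1 and 1.56%, genome 5.70%), and GCGTG at 199 and 32 (18.3 and 7.11%, genome 5.47%). GC boxes (GGGCGG) were at 190 LIF summits (17.5%) and 1 peroxide summit, with the genome windows at 1.58%. The purine-rich letters AGGNNNAGG were at 176 LIF summits (16.2%) and 22 peroxide summits (4.89%), with the genome windows at 13.0%. LIF windows were richer in G and C than peroxide windows, with medians of 50.9 and 39.8%, and the part of this in the shares of motifs was not tested.

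Within the LIF list, the SIE share was 16.9% in promoters, 12.8% in introns and 15.5% in intergenic sequence, and the interval of the difference between promoters and intergenic sequence included 0 (1.4 points, -4.15 to 6.71). AP-1 sites were less frequent in promoters (15.7%) than in intergenic sequence (24.7%), with a difference of -8.99 points (-15.0 to -3.11), and introns had them at 31.4%. GC boxes were more frequent in promoters than in intergenic sequence, at 31.4 and 12.2% (19.2 points, 13.2 to 24.8). The same held for GCGTG, at 27.8 and 13.5% (14.3 points, 8.39 to 19.9).

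Both lists were also divided into 4 equal parts by score. From the highest to the lowest part of the LIF list (272 summits each), the promoter share was 42.6, 40.4, 37.5 and 34.2%, the SIE share 18, 19.9, 12.1 and 11.0%, and the median distance to a start site 4.60, 5.74, 5.97 and 7.32 kb. The AP-1 share ran the other way, at 19.9, 21.3, 25 and 26.5%. For peroxide, the promoter share was 7.08, 6.19, 6.25 and 3.57%, the intergenic share stayed between 68.1 and 71.4%, and the share that matched the repeat was 95.6, 94.7, 97.3 and 86.6%. These trends are given as a description.

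The lists also differed in how they were spread over chromosomes. LIF summits were densest on chromosomes 10 (128 summits, 97.9 per 100 Mb) and 15 (96 summits, 92.3 per 100 Mb), and sparse on chromosomes 14 (13.6 per 100 Mb), 1 (16.4), X (4.09) and Y (0). The densities of protein-coding genes were 781 per 100 Mb on chromosome 10, 754 on 15 and 722 on 14. The densities are not corrected for the number of copies of a chromosome in these cells or for reads per chromosome, neither of which was analysed here. Peroxide summits were spread more evenly, between 10.4 per 100 Mb on chromosome 9 and 22.8 on X, with 5.45 on Y. Chromosomes 10 and 15 had 19.1 and 13.5 of them per 100 Mb. The X chromosome held 39 peroxide summits (8.67%) and 7 LIF summits (0.643%), and it was also the chromosome with the largest share of genome windows that matched the 6-kb repeat (10.1%).

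**Figure D5:**
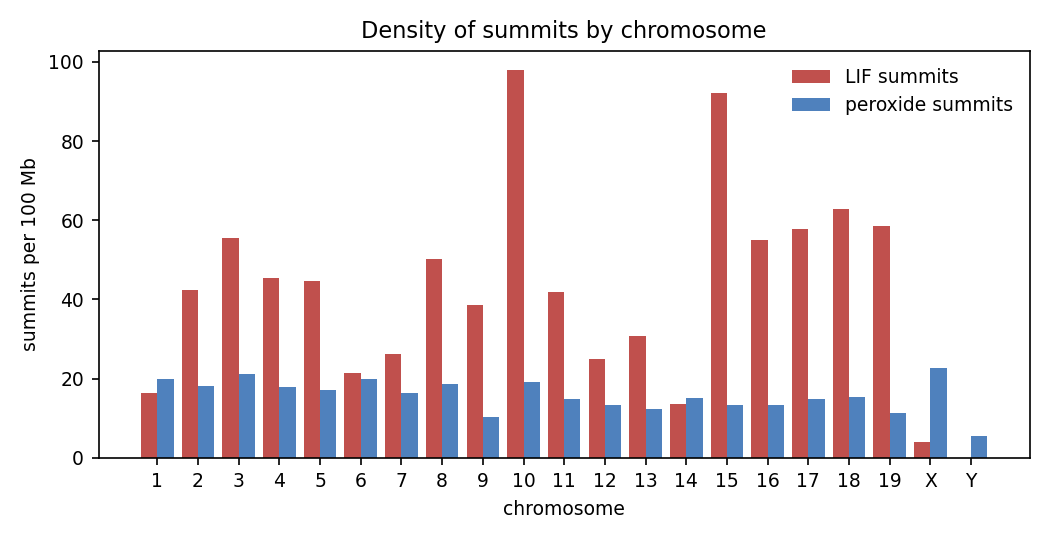
Summits per 100 Mb (y axis) on each chromosome (x axis) for LIF (red) and peroxide (blue). LIF summits reach 97.9 and 92.3 per 100 Mb on chromosomes 10 and 15 and 4.09 on X, whereas peroxide summits stay at or under 22.8.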

How the data were processed

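Stat3 ChIP-seq was carried out by the authors with 2 replicates for each of 5 conditions, with input DNA and IgG controls that were not analysed here. The submitters' processing notes name HISAT2, Picard, MACS2 and the build mm10, without versions or roles. Per the series description, each list was made from both replicates, and the study describes selecting peaks by their height above IgG controls. The deposited lists give 1 summit position and 1 score per peak. What the authors' score measures is not given in the sources used here, and it served as a rank within a list. The lists hold no depth, and no precision was computed from it.

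Positions were read against GRCm38.p6, with GENCODE M21 (55413 genes on 21 chromosomes). Windows were tiled every 10 kb without gaps in sequence (264732), and every 50th was used for copies and repeat matches (5295). Summits within 200 bp were counted as shared. Masked bases are those in lower case in the reference. Windows of 150 bp to each side were compared with BLAST 2.17.0. Intervals are exact Clopper-Pearson (shares) and Newcombe (differences) 95% intervals, from SciPy 1.17.1 and statsmodels 0.14.6. Differences are between 2 lists, and no p-value was computed. The scripts were tested on simulated data with planted motifs, copies, overlaps and repeats.

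The members, gene lists and tests were chosen with earlier results of these data known. Named genes were those nearest to the 12 highest-ranking summits of each list, to shared loci, to summits of both lists (up to 10) and to peroxide promoter summits (up to 10), and up to 5 of each gene list by rank. Some items that this rule names are not reported here. Of the symbols in the lists, Ctgf was not matched. Alternatives were other windows, distances, gene sets and list lengths, with 9 added after seeing the data.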

Additional observations from a re-analysis of the deposited data

How the results depend on the processing

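All 8 differences between the lists kept their direction under the 33 alternatives tried for them, and 32 of the intervals excluded 0. Among these 8 is the share that matched the 6-kb repeat. Its reference copy was taken from the peroxide list, so that the direction of this difference was set by that choice. The exception was the SIE among windows under 50% masked, where only 4 peroxide windows were left: 15.2 percentage points, -33.9 to 17.5. With peroxide summits that did not match the repeat, an alternative chosen after seeing the data, the intergenic difference was -23.8 points (-40.9 to -6.27) in place of -41.8. Other values moved by over 1.5 times were the single-copy difference, 57.0 points with 75 bases, 16 with 150 and 89.2 with 31; the SIE difference, 30.1 with the GAS letters; and the difference within 5 kb of a start site, 36.8 points, which was 22.3 within 50 kb. Shared loci numbered 2 at 100 bp, 500 bp and 1 kb, and 3 at 10 kb. Genes nearest in both lists were 23 with protein-coding genes only and 3 with the 450 highest-scoring LIF summits, against 9. Genes of the 9 gene lists with a LIF summit were 29 with those 450 summits, against 44. Those with a peroxide summit were 4 within 5 kb, 66 within 50 kb and 1 without the sensory receptors (chosen after seeing the data), against 12. No paired analysis was possible because both replicates of a condition were pooled before the lists were made, and no replicate could be left out.

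The lists hold no depth, and the study describes more unique reads per library for LIF, so that a locus absent from the peroxide list was not called there and need not be unbound. The shorter peroxide list limits counts of genes near its summits.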
